A study of Mus musculus with 4 samples.

Results

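The genes described here drive or mark cell division: 40 cell cycle and DNA replication genes, listed by name, with earlier results of these data known, and measured in the liver of wildtype and Sox17+/- mouse fetuses. A gene was taken as measured where a probe set on the array carried its symbol and no other, and its brightest such probe set by mean signal stood for it. This gave 39 of the 40 genes, out of 18193 genes with a probe set of their own symbol. They fall into 20 mitotic genes, 14 genes of S phase and 5 G1 cyclins. Ccnb1 had no probe set with its symbol in the annotation used here and was not analysed.

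The fetuses were of the C57BL/6 strain, carried by wildtype females mated with Sox17+/- males, and the liver was freed of the biliary system at gestation day 17. One group was wildtype at Sox17 and the other carried 1 altered Sox17 allele. Sox17 encodes a SOX family transcription factor of endoderm, bile duct and arterial endothelium, and no source used here states which part of the gene was altered. Each genotype had 2 biological replicates and 1 array per replicate. The sources used here also do not state the sex or the number of fetuses behind a replicate. The p-values therefore rest on the spread between these samples, which need not be that between single fetuses. Sox17 itself, on its brighter probe set, had signals of 244 and 264 on the wildtype arrays against 139 and 124 on the heterozygous arrays (log2 difference -0.87, SE 0.20, adjusted p = 0.9999 by limma).

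A dividing cell passes from G1, where D and E cyclins with their kinases release E2F transcription factors from the retinoblastoma protein, through S phase, where the MCM helicase is loaded and the genome is copied, to mitosis, where cyclin B with Cdk1, the Aurora and Polo kinases and the spindle motors separate the chromosomes. Transcripts of S phase genes peak near the G1 to S boundary and those of mitotic genes in G2 and M. Late fetal liver holds dividing erythroid precursors beside dividing hepatoblasts, so in whole liver these transcripts report on both. With bulk RNA, fewer cells of a type and less RNA per cell cannot be told apart.

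No cell cycle gene passed the test between genotypes, and most of their values were close to equal. Of the 39 genes, 37 had a log2 difference within 0.25 of 0, against 66.6% of all 11691 tested genes and 76.6% of those with a mean signal of 1000 or more. The differences, on the log2(signal + 16) scale, ran from -0.16 for Aurkb to 0.50 for Ccnd2. By limma 0 of 39 passed after Benjamini-Hochberg adjustment over all 22519 tested probe sets (0.0% of all genes in either direction), and 0 of 39 had an unadjusted p under 0.05 (4.15% of all genes). All 39 had an adjusted p of 0.9999. The 95% interval lay inside 2-fold in both directions for 37 of the 39 (75.0% of all genes and 85.0% of those of 1000 or more), the others being Tyms and Ccnd2. The median interval reached 0.57 to each side of the estimate, or 1.49-fold. With 1 array left out, which widens the intervals of all genes, 24 to 32 members lay inside 2-fold, fewest without heterozygous array 2 (24 members and 39.6% of all genes). No probe set of any gene passed the adjusted test, the smallest adjusted p by limma being 0.297.

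**Figure D1:**
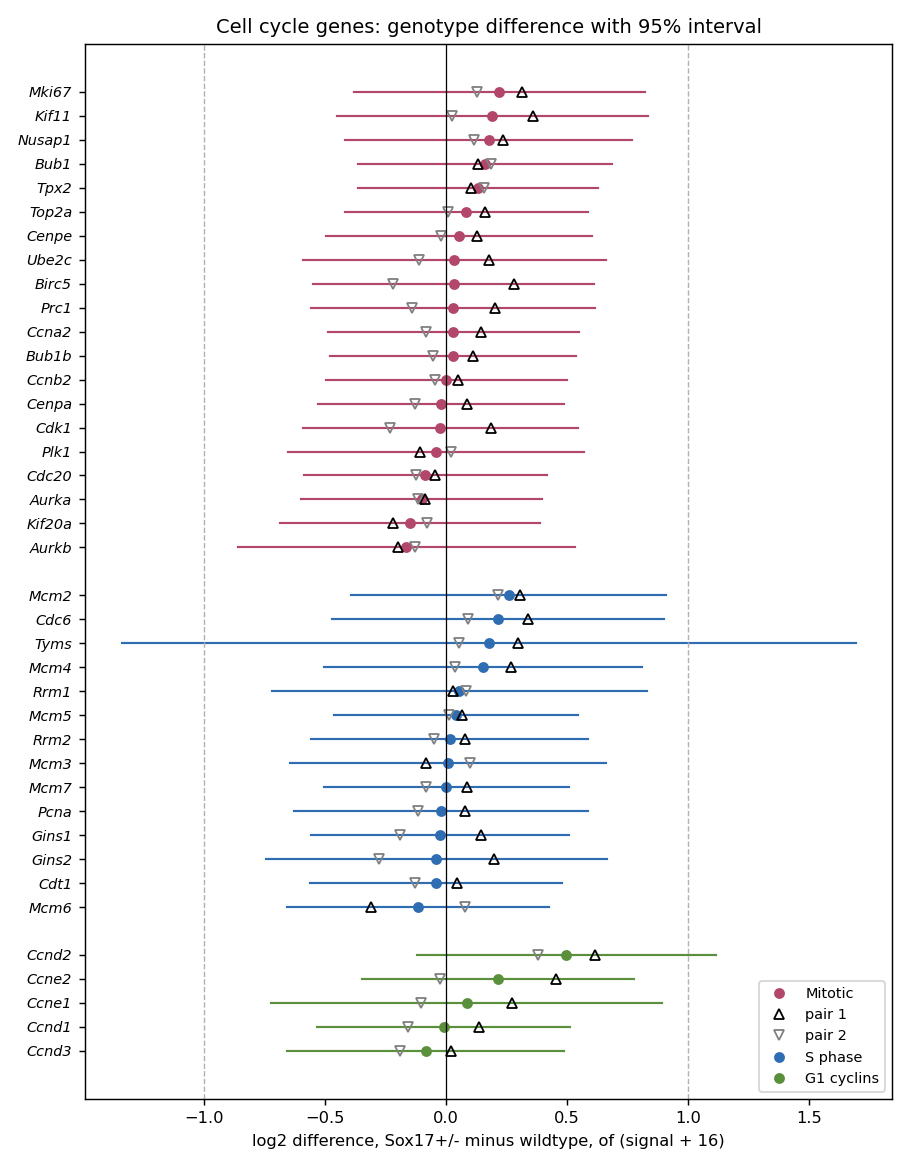
Log2 difference between Sox17+/- and wildtype liver for 39 cell cycle genes, with filled points for the limma estimate over 4 arrays, lines for its 95% interval, upward triangles for the difference within the arrays numbered 1 and downward triangles for that within the arrays numbered 2. Every interval holds 0, and those of all genes but Tyms and Ccnd2 lie between the dashed lines at 2-fold.

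The cell cycle genes did not all share a direction between the genotypes, though a smaller share of them than of all genes was lower in both pairs. For 2 of the 39 genes neither heterozygous array reached the lower wildtype array (18.6% of all genes), and for 4 each heterozygous array exceeded the higher wildtype array (14.5% of all genes). Within the same-numbered pairs of arrays, 4 genes were lower in both pairs (32.2% of all genes), 13 were higher in both (25.5% of all genes), and 22 differed in direction between the pairs. The median log2 difference was 0.03, against -0.02 over all tested genes. With each array centred on its own median, 0 were lower in both pairs and 19 higher in both, against 17.8% and 26.4% of all genes, and the median was 0.08.

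The promoters are shown because the classes differ in sequence as well as in timing. RefSeq windows on build GRCm38.p6, from 250 bases before to 50 after each start, were held for 29 of the 39 measured genes (32 windows, since Mcm7, Prc1 and Ccnd3 have 2 starts each). Those not in the table were Ccna2, Aurkb, Kif20a, Tpx2, Mcm4, Gins1, Gins2, Ccne2, Ccnd1 and Ccnd2. Windows were searched on both strands for the CCAAT box (CCAAT), for the cell cycle homology region or CHR (TTTGAA or TTTAAA), and for E2F letters (TTTCGCGC, TTTGGCGC, TTTCCCGC or TTTGCCGC). TTTAAA reads the same on both strands, and E2F matches on opposite strands can overlap, as in Mcm5 and Mcm6.

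The CHR letters stood in 15 of 17 windows of mitotic genes (88.2%), in 3 of 12 of S phase genes and in 27.6% of all 32851 windows. In the 250 bases before the start alone they stood in 11 of 17 mitotic windows and 25.2% of all windows. The 2 windows of Prc1 overlap, and each is counted. E2F letters stood in 1 of 17 mitotic windows (5.88%, that of Cdk1), in 6 of 12 S phase windows and in 2.26% of all windows. The CCAAT box was in 15 of 17 mitotic windows and in 9 of 12 S phase windows (75.0%), against 37.4% of all windows. CHR and CCAAT box stood together in 14 of 17 mitotic windows (82.4%) and 10.7% of all windows. The member windows were richer in G and C than the rest, with a median of 58.3% against 52.7%. A match is a description of the letters and not of a bound site.

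The 250 bases before the start are given for a pair of mitotic and a pair of S phase genes, with Mki67 and Mcm6 as examples of the CHR and the E2F letters, Cdk1 as the 1 mitotic window that holds both, and Cdc6 as an S phase promoter with E2F letters alone, each 5′ to 3′ on the gene's own strand, with the matched letters of any of the 3 motifs in capitals. They are Cdk1 at chr10:69352913-69353162 on the minus strand, Mki67 at chr7:135716380-135716629 on the minus strand, Mcm6 at chr1:128359706-128359955 on the minus strand, and Cdc6 at chr11:98907901-98908150 on the plus strand.
Cdk1: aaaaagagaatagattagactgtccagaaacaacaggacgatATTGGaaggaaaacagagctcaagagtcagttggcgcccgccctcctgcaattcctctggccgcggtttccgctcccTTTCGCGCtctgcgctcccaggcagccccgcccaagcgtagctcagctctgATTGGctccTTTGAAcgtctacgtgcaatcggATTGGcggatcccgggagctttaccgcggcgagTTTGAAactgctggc
Mki67: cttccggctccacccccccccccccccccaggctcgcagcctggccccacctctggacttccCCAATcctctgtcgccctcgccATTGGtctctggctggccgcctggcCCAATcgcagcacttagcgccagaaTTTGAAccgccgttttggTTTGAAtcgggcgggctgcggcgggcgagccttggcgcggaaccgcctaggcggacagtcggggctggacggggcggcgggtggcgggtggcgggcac
Mcm6: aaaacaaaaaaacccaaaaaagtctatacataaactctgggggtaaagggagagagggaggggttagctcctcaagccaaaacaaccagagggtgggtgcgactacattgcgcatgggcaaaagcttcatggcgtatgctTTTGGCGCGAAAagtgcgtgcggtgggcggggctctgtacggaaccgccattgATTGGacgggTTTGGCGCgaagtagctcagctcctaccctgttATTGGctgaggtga
Cdc6: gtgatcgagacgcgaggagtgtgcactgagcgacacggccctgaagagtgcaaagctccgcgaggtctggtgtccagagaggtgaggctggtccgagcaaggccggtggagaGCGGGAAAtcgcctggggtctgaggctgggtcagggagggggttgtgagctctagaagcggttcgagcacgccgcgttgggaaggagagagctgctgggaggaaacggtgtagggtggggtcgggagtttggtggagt
Cdk1 holds 3 CCAAT boxes, 2 CHR matches 71 and 15 bases before the start, and 1 E2F match 131 bases before it. Mki67 holds 3 CCAAT boxes and 2 CHR matches. Mcm6 holds 2 CCAAT boxes and 3 E2F matches, 2 of which overlap, and Cdc6 holds 1 E2F match and neither of the other motifs.

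The mitotic genes had a median log2 difference of 0.03. Of the 20, 6 had both pairs above 0 (30.0%, against 25.5% of all genes). Another 4 had both below (20.0%, against 32.2% of all genes), and 10 were mixed. The medians within the pairs were 0.13 and -0.07. Without wildtype array 1 the median was -0.06, and those of the S phase genes and G1 cyclins were also below 0, at -0.07 and -0.06. Mki67, the proliferation antigen that coats mitotic chromosomes, had signals of 15932 and 13848 in wildtype and 19794 and 15129 in heterozygous liver. Its heterozygous arrays were not both above the wildtype ones, and the log2 difference was 0.22 (SE 0.24). It was 0.03 and 0.41 without heterozygous arrays 1 and 2, and 0.32 and 0.12 without wildtype arrays 1 and 2. Top2a, the topoisomerase that untangles replicated chromosomes, had 7788 and 8406 in wildtype against 8702 and 8450. Cdk1, the kinase that starts mitosis, had 6096 and 6365 against 6924 and 5413, so the 2 heterozygous arrays lay on either side of wildtype. Ccnb2 and Ccna2, the cyclins that act with Cdk1 and Cdk2, had log2 differences of 0.00 and 0.03.

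The lowest mitotic genes were kinases, a motor and an activator of the anaphase-promoting complex. Aurkb, the kinase that corrects faulty spindle attachments, had 2322 and 3084 in wildtype against 2018 and 2822 in heterozygous liver (log2 difference -0.16, SE 0.28), and its groups overlapped. Aurka, the Aurora kinase of the spindle poles, had 4376 and 4277 against 4123 and 3940, without overlap but only 0.10 apart on the log2 scale. Kif20a, a kinesin of the midbody, had 1622 and 1751 against 1389 and 1657. Cdc20, which activates the anaphase-promoting complex, had 9978 and 9726 against 9659 and 8914, again without overlap. These 4 were the members lower within each pair.

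Bub1, a kinase of the spindle checkpoint, had 2945 and 3227 in wildtype against 3230 and 3674, a log2 difference of 0.16 (SE 0.21). Tpx2, which targets Aurora A to the spindle, had 3003 and 3006 against 3226 and 3355. Bub1, Tpx2 and Top2a were the 3 mitotic genes whose heterozygous arrays were both above both wildtype arrays, or 15.0% against 14.5% of all genes. Kif11, the motor that pushes the poles apart, and Nusap1, which bundles microtubules, had log2 differences of 0.19 and 0.18. Ube2c, Birc5, Plk1, Bub1b, Cenpa, Cenpe and Prc1 lay between -0.04 and 0.05, with their pairs on opposite sides of 0. On dimmer probe sets the direction of Bub1 and Tpx2 was the other way. The second probe set of Bub1 had 324 and 349 in wildtype against 255 and 309 (log2 difference -0.25), and 2 of the 3 further probe sets of Tpx2 had a difference of -0.32.

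The S phase genes had a median log2 difference of 0.01. Of the 14, 6 had both pairs above 0 (42.9%, against 25.5% of all genes) and 0 had both below (32.2% of all genes). None of the 14 had both heterozygous arrays above both wildtype arrays (14.5% of all genes) or below both (18.6% of all genes). Mcm2, a subunit of the replicative helicase, had 3171 and 4269 in wildtype against 3920 and 4948 in heterozygous liver (log2 difference 0.26, SE 0.26). Without wildtype array 1 or heterozygous array 2 it was 0.045 and 0.09, and without the other wildtype or heterozygous array 0.47 and 0.43. Its second tested probe set gave 0.13 and was also higher in both pairs. Among the other helicase subunits Mcm4 was at 0.15, Mcm5 at 0.04, Mcm3 at 0.01, Mcm7 at 0.00 and Mcm6 at -0.12. The 6 subunits form 1 ring, and their values spread over both sides of 0.

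Loading factors and nucleotide enzymes were as close. Cdc6, which loads the helicase, had 2387 and 3474 in wildtype against 3025 and 3697, a log2 difference of 0.21 (SE 0.27), while its partner Cdt1 was at -0.04. Pcna, the sliding clamp of the replication fork, had 26453 and 22945 against 27887 and 21147, with the arrays numbered 1 highest in both genotypes. Rrm1 and Rrm2, the subunits of ribonucleotide reductase, were at 0.05 and 0.01, and Gins1 and Gins2, of the complex that joins the helicase to Cdc45, at -0.03 and -0.04. Tyms, thymidylate synthase, had dim signals, with 59.8 and 186 against 77.1 and 193. Its interval ran from -1.34 to 1.69, and its second tested probe set, at 123 and 160 against 85.5 and 93.8, pointed the other way (log2 difference -0.57).

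S phase and mitotic genes did not part by genotype. The S phase median minus the mitotic median was -0.02 over all 4 arrays, -0.05 within the arrays numbered 1 and 0.09 within those numbered 2. The direction of this difference thus changed between the pairs.

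The same contrast was larger between replicates of 1 genotype. From the array numbered 1 to that numbered 2, the median S phase gene differed by 0.26 in wildtype and 0.15 in heterozygous liver, and the median mitotic gene by 0.11 and -0.03, so that S phase exceeded mitotic by 0.15 and 0.18. Set against each gene's own mean over the arrays, the S phase median lay above the mitotic median by 0.07 and 0.04 on the arrays numbered 2 and below it by 0.05 on each array numbered 1. Centring the arrays cannot alter a difference between classes on 1 array, and with quantile normalization the excess was 0.17 and 0.21. Among genes with a mean signal under 10000 it was 0.32 and 0.26 (11 S phase and 17 mitotic genes). For 13 of 14 S phase genes and 14 of 20 mitotic genes the mean difference between array numbers was larger than that between genotypes (56.1% of all genes).

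The level of each class between array numbers, in contrast to their difference, depended on scaling. As deposited, 20 of 39 genes were higher on the arrays numbered 2 in both genotypes (31.3% of all genes) and 7 lower (31.5% of all genes). The median of the 39 genes was then 0.20 between the wildtype arrays and 0.05 between the heterozygous ones. Over all genes it was -0.01 and 0.01. With median centring the median of the 39 was -0.04 and 0.13, against -0.25 and 0.08 over all genes. With quantile normalization it was 0.27 and 0.14, against -0.05 and -0.03 over all genes. Marker lists of several cell types differed with the array number too. The summed signal of the hepatocyte markers (9 of 10 listed) was 325032 and 315577 on the arrays numbered 1. On those numbered 2 it was 193468 and 184054, and all 9 were bright enough to be tested. Neutrophil markers (6 of 6) ran the same way, with sums of 60979 and 62181 against 43726 and 45941, and stem and progenitor markers (6 of 7) the other way, with 4189 and 4047 against 4842 and 4783. Very bright genes as a whole were lower on the arrays numbered 2, with 293 of the 347 tested genes of mean signal 10000 or more lower there in both genotypes. The part of these in the S phase excess was not tested.

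**Figure D2:**
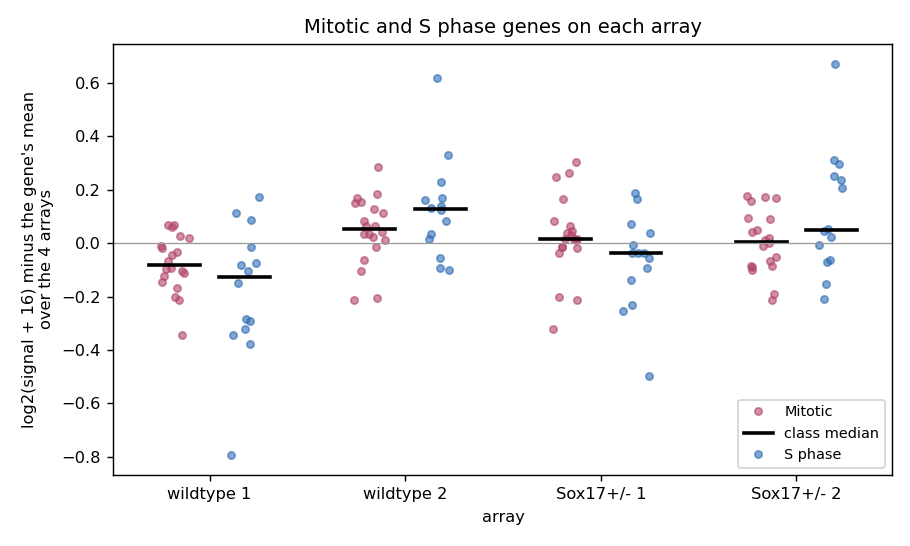
Each point is a mitotic or S phase gene on 1 array, plotted as log2(signal + 16) minus that gene's mean over the 4 arrays, and black bars are class medians. The S phase median is below the mitotic median on wildtype 1 and Sox17+/- 1 and above it on wildtype 2 and Sox17+/- 2.

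The G1 cyclins held the gene with the largest difference. Ccnd2, cyclin D2, had signals of 918 and 1245 in wildtype and 1413 and 1625 in heterozygous liver, or 1081.5 ± 231 against 1519 ± 150.1 (mean ± SD, n = 2 each). Both heterozygous arrays were above both wildtype arrays. The log2 difference was 0.50 (SE 0.24, 95% interval -0.12 to 1.12, 1.41-fold), with 0.61 within the arrays numbered 1 and 0.38 within those numbered 2, and it did not pass (adjusted p = 0.9999 by limma). Of all tested genes, 4.23% had a difference as large on the higher side. It was 0.28 without wildtype array 1 and 0.71 without wildtype array 2.

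Other probe sets of Ccnd2 gave the same direction. All 5 tested probe sets were higher in both pairs, by log2 differences of 0.35 to 0.93, and 4 of the 5 had both heterozygous arrays above both wildtype arrays (14.1% of all probe sets). All 5 had an adjusted p of 0.9999 by limma. The 1 with an unadjusted p under 0.05 had signals of 499 and 509 in wildtype against 786 and 712 (log2 difference 0.55, SE 0.20), and it carries the array maker's suffix for sequences shared with other transcripts. Probe sets of a gene read the same RNA samples and are not replicates. Of 792 genes with at least 4 tested probe sets, 25 had all of them higher in both pairs (3.16%), and of the 4 cell cycle genes among the 792, Ccnd2 was 1. This count was chosen after the values of Ccnd2 were seen.

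**Figure D3:**
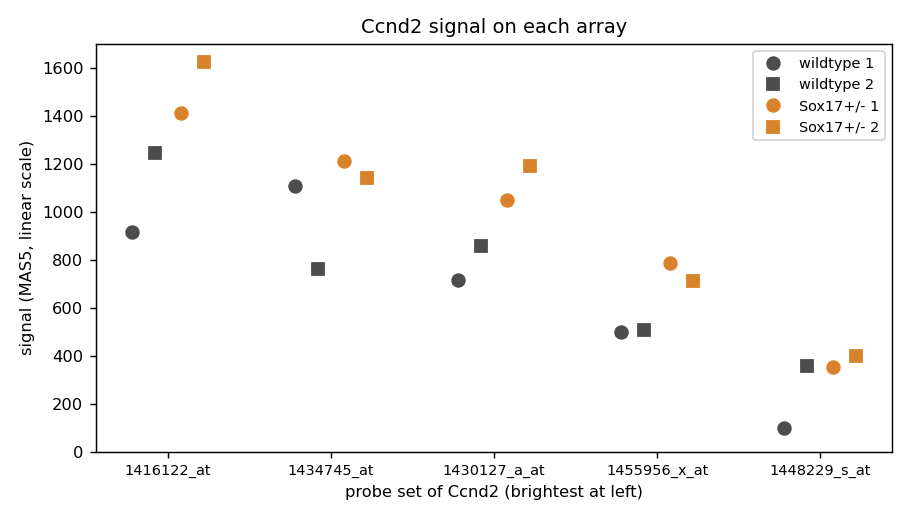
Signal of the 5 tested Ccnd2 probe sets on each of the 4 arrays, on a linear axis from 0, with grey for wildtype, orange for Sox17+/-, circles for arrays numbered 1 and squares for arrays numbered 2. Within each number orange lies above grey on all 5, and on the dimmest probe set the wildtype arrays, at 97.4 and 358, are far apart.

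The other G1 cyclins differed less on their brightest probe sets. Ccnd1, cyclin D1, had 1584 and 1707 in wildtype against 1744 and 1527 (log2 difference -0.01). Ccnd3, the D cyclin known for its role in blood cells, had 6597 and 8366 against 6691 and 7333 (-0.08). Ccne1 and Ccne2, the E cyclins that act with Cdk2 at the start of S phase, were at 0.08 and 0.21. Ccne2 had 2796 and 3307 against 3837 and 3251, with a difference of 0.45 within the arrays numbered 1 and -0.02 within those numbered 2. On these probe sets the pairs disagreed in direction in all 4 genes. Other tested probe sets gave other directions. A second one of Ccnd1 had 1499.7 and 1359 in wildtype against 1669 and 1582, without overlap (log2 difference 0.18), and one of Ccnd3 had 282 and 392 against 463 and 401 (0.36), also without overlap. That of Ccne1 was lower in both pairs (-0.08).

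Marker lists of cell types had medians on both sides of 0. Those of erythroid, progenitor, megakaryocyte, macrophage and hepatocyte cells were below it, and those of neutrophil, endothelial, stellate and biliary cells above. Erythroid markers, of which 10 of 12 were measured and tested, had a median log2 difference of -0.05 and summed signals of 152807 and 140425 in wildtype against 152358 and 133679. Stem and progenitor markers (6 of 7) were at -0.23, with sums of 4189 and 4842 against 4047 and 4783. Of the 6, 5 were lower in both pairs (32.2% of all genes). Megakaryocyte markers (5 of 5) were at -0.26, with sums of 27864 and 26453 against 21926 and 22412. All 5 were lower in both pairs (32.2% of all genes). Macrophage markers (5 of 6) were at -0.17, with sums of 17389 and 14292 against 14542 and 14010. Of the 5, 3 were lower in both pairs (32.2% of all genes). Hepatocyte markers were at -0.05. Endothelial markers (5 of 5) were at 0.12, with sums of 6424 and 5065 against 6718 and 6566. Neutrophil markers (6 of 6) were at 0.06. In both pairs 3 of the 6 were higher (25.5% of all genes) and 1 lower (32.2% of all genes). Stellate markers (5 of 5) and biliary markers (3 of 5 tested) were each at 0.06. None of these markers passed limma's adjusted threshold, and the part of any of these cells in the Ccnd2 values was not tested.

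The 39 genes had 94 probe sets in all, of which 83 were bright enough to be tested. Of the 44 tested ones that did not stand for their gene, 12 were lower in both pairs (30.0% of all probe sets) and 15 higher in both (25.9% of all probe sets), with a median log2 difference of 0.06 and a range from -0.74 to 1.199, wider than that of the brightest probe sets. Of the 83, 0 passed limma's adjusted test and 3 had an unadjusted p under 0.05 (4.1% of all probe sets), 1 each of Ccnd2, Bub1b and Tyms. That of Ccnd2 was higher and the other 2 were lower. Kif11, Mcm2, Mcm4 and Rrm1 were higher in both pairs on all of their 2 to 3 tested probe sets, and Aurkb was lower in both on its 2. Both probe sets of Rrm1 were at only 0.05. The share of all genes with 2 to 3 tested probe sets that did so was not computed, so no weight is placed on this. Of the brightest probe sets, 9 carry the array maker's suffix for sequences shared with other transcripts (those of Cdc20, Aurkb, Bub1b, Mcm3, Mcm5, Mcm7, Rrm2, Gins2 and Ccne1), so their signal may hold RNA of other genes.

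No further mitotic gene passed the test either. Of 77 symbols listed (some of them older names of the same gene), 70 were tested. In both pairs 17 were lower (24.3%, against 32.2% of all genes) and 24 higher (34.3%, against 25.5% of all genes). By limma 0 passed the adjusted test and 0 had an unadjusted p under 0.05 (4.15% of all genes). The median log2 difference was 0.03, with 56 of the 70 within 0.25 of 0 (66.6% of all genes) and a range from -0.57 to 0.37. The lowest was Pttg1, securin, named after its values were seen, with 13142 and 11779 in wildtype against 6113 and 11506, or -1.10 and -0.03 within the pairs. Cenpm, a centromere protein, had 809 and 943 in wildtype against 608 and 617 (log2 difference -0.50, SE 0.21), without overlap. Pimreg and Cenpn were at -0.41 and -0.37. On the other side Ncapd2 and Smc4, subunits of condensin, were at 0.36 and 0.19, and Nuf2, of the kinetochore, at 0.24.

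Further replication genes, with 51 of 55 tested, were as balanced. In both pairs 16 were lower (31.4%, against 32.2% of all genes) and 15 higher (29.4%, against 25.5% of all genes). By limma 0 passed the adjusted test and 0 had an unadjusted p under 0.05 (4.15% of all genes), and the median was 0.01. Rnaseh2a, the catalytic subunit of ribonuclease H2, had 1416 and 1501 against 1837 and 2098 (log2 difference 0.43, SE 0.21). Dbf4, which activates the replication kinase Cdc7, was at 0.37, and Orc4, of the origin recognition complex, at 0.25. All 3 had heterozygous arrays above both wildtype arrays, as did 6 of the 51 in all (11.8%, against 14.5% of all genes). Pole2, Rfc3 and Pold1, of the polymerases and the clamp loader, were at -0.34, -0.28 and -0.21.

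E2F factors include activators and repressors of S phase genes, and MuvB factors act on both S phase and mitotic genes. Of 13 E2F, DP and MuvB-related factors, 5 were lower in both pairs (32.2% of all genes) and 2 higher in both (25.5% of all genes). Their median was -0.06, with 0 past limma's test and 0 at an unadjusted p under 0.05 (4.15% of all genes). E2f4, a repressor in resting cells, had 1140 and 2556 in wildtype against 948 and 2142 (log2 difference -0.26, SE 0.54), and differed far more between array numbers than between genotypes. E2f6 and E2f7 were at -0.19 and -0.07, and E2f2 and E2f8 at 0.15 and 0.03. Another list of 23 genes, here the anaphase-promoting list, held subunits of that complex, cell cycle kinases and phosphatases, and other regulators such as Skp2. In both pairs 8 were lower (34.8%, against 32.2% of all genes) and 8 higher (34.8%, against 25.5% of all genes). The list had a median of 0.03, with 0 past limma's test and 0 at an unadjusted p under 0.05 (4.15% of all genes). Wee1, the kinase that holds Cdk1 inactive, had 546 and 645 against 801 and 769 (0.40, SE 0.21). Cdc27 and Anapc1, subunits of the complex, were at 0.25 and 0.19, and Anapc11, its RING subunit, at -0.29. Cdk7 and Skp2 were at -0.28 and -0.23.

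Genes that restrain the cycle had values far to both sides of equality. Of 14 CDK inhibitors, retinoblastoma family members, BTG genes and G cyclins, 12 were tested (Cdkn2a and Cdkn2b were too dim). In both pairs 4 were lower (33.3%, against 32.2% of all genes) and 5 higher (41.7%, against 25.5% of all genes). By limma 0 passed the adjusted test, and 2 had an unadjusted p under 0.05 (4.15% of all genes). The median was 0.18, and 4 of the 12 lay within 0.25 of 0 (66.6% of all genes). Rb1, the retinoblastoma protein that holds E2F in check, had 3387 and 3932 in wildtype against 5503 and 6198 (log2 difference 0.68, SE 0.21, unadjusted p = 0.023 and adjusted p = 0.9999 by limma), with 0.70 and 0.65 within the pairs. Cdkn1c, an imprinted CDK inhibitor of fetal tissues, had 8269 and 5228 against 4298 and 3527 (-0.75, SE 0.30, unadjusted p = 0.049 and adjusted p = 0.9999 by limma), and was -0.42 without wildtype array 1. Each of the 2 was measured by 1 tested probe set.

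Cdkn1a, the CDK inhibitor induced by p53, had signals of 439 and 210 in wildtype against 909 and 417 in heterozygous liver. It was higher within each pair, by 1.02 and 0.94, but the groups overlapped because the arrays numbered 1 were higher in both genotypes, and the log2 difference of 0.98 had an SE of 0.50. It was 0.43 without heterozygous array 1 and 0.48 without wildtype array 2, and 1.53 and 1.49 without the other heterozygous and wildtype array. Btg1, an antiproliferative gene, was at 0.36, and Cdkn2c and Cdkn2d, inhibitors of the cyclin D kinases, at -0.30 and -0.10. Cdkn1b and Btg2, named here after their values were seen, had their lowest signal on wildtype array 1. Cdkn1b had 919 on that array, 2172 on the other wildtype array and 2348 and 2489 in heterozygous liver, and Btg2 had 851, 4358, 4498 and 3978. The second tested probe set of Btg2 had no low value there, with 1991 and 1999 in wildtype against 2164 and 2186 in heterozygous liver (log2 difference 0.12), without overlap.

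**Figure D4:**
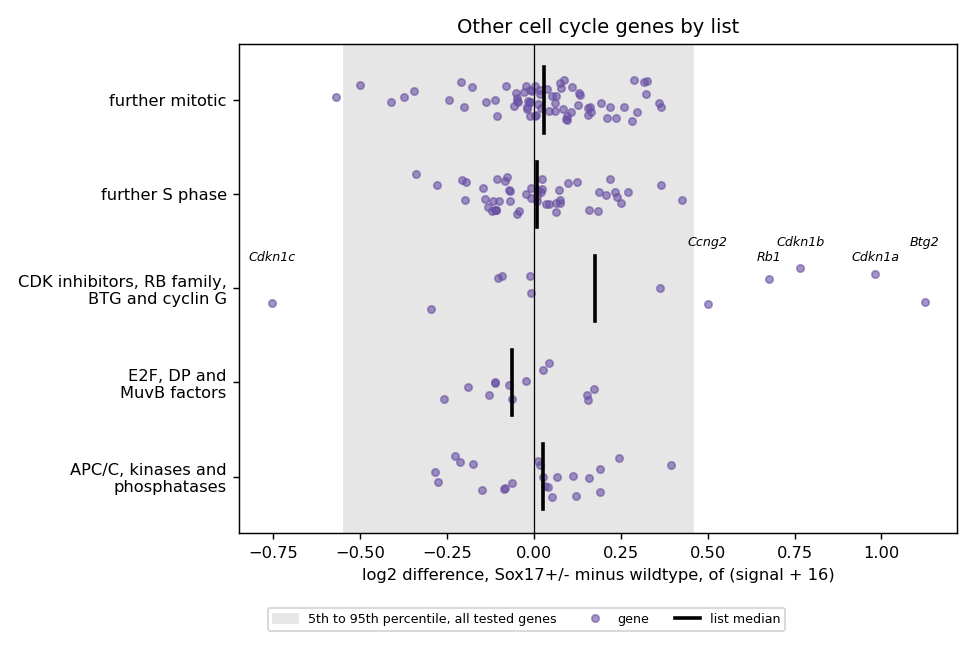
Log2 difference between Sox17+/- and wildtype liver for each tested gene of 5 further cell cycle lists, with a black bar at the list median and a grey band from the 5th to the 95th percentile of all tested genes (-0.55 to 0.46). The genes that restrain the cycle, in the middle row, reach outside the band on both sides, from Cdkn1c at -0.75 to Btg2 at 1.12, with Cdkn1a at 0.98. The medians of the other lists are within 0.07 of 0.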

How the data were processed

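The authors deposited 1 table of linear intensity values (signals) per probe set for 4 single-colour Affymetrix arrays, and the submitters' processing notes name MAS5. The mean of each array after trimming the lowest and highest 2% was 500 in the values. Signals of MAS5 use no information from other arrays and are noisy where dim, and the common mean removes differences in total RNA. Of 45101 probe sets, 64 controls were left out. Of the rest, 34945 had 1 gene symbol in the platform annotation, 932 several and 9160 none listed. The brighter 50% by mean log2(signal + 16) entered a two-sided limma fit with genotype as the only term (lmFit, eBayes; limma 3.58.1, R 4.3.3). Benjamini-Hochberg adjustment ran over all 22519 of them, with a threshold of 0.05. The arrays left 2 residual degrees of freedom and the prior gave 3.24 more. A fold computed on the log2(signal + 16) scale understates the difference of dim genes. Lists are described by counts and medians, beside all tested genes. With 2 arrays on each side the smallest two-sided p of an exact permutation test is 0.333. The members and lists were chosen with earlier results of these data known. Genes named with values were those of each class with the largest smaller-of-2 pair difference in 1 direction (up to 4 lower and 2 higher), every G1 cyclin, Mki67, Top2a, Pcna, Cdk1 and Mcm2, up to 3 per direction of each further list, and Sox17, while other members have their differences given. Per-array values beyond these, such as those of Tpx2 and Tyms, were chosen after they were seen. Alternatives were other pseudocounts, filters, scalings, priors and probe set rules, the array number as a block, each array left out, and the promoter window without its last 50 bases. The code was tested on simulated data.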

Additional observations from a re-analysis of the deposited data

How the results depend on the processing

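No member passed limma's adjusted threshold under any of the 13 alternatives. Over all features the count past that threshold was 5 with median centring and 3 with a trended, robust prior, against 0. Labels give the genotypes the same array numbers, and same-numbered arrays deviated together (r = 0.383 across probe sets). With the array number as a block 0 members passed, and 1693 probe sets against 923 had an unadjusted p under 0.05. Ccnd2 then had an unadjusted p of 0.0466 by limma (adjusted p = 0.659). In the separate fit on the mean over all tested probe sets its unadjusted p was 0.0401 by limma (adjusted 0.95). With median centring Pcna and Cdk1, near 0 throughout, turned to 0.026 and 0.0219, 0 members were below without overlap (11.1% of all genes) and 8 above (16.2%), 0 were lower in both pairs (17.8%), the S phase median was 0.0577, the E2F factor median -0.0173, and the medians between wildtype arrays were -0.13 (mitotic), 0.0258 (S phase) and 0.11 (G1 cyclins). With quantile normalization 1 member was below without overlap (18.9% of all genes), and S phase genes differed between array numbers by 0.36 and 0.28. With the mean over probe sets 1 member was above without overlap (13.4% of all genes) and 7 were lower in both pairs (32.8%), the S phase median between wildtype arrays was 0.37, and the medians were 0.34 for genes that restrain the cycle, -0.0264 for E2F factors and -0.0892 for the anaphase-promoting list. Among the brighter 25% these were -0.0088 and -0.0672 for the first and second, and with a pseudocount of 64 the second was -0.0618. In the 250 bases before the start alone, the CHR stood in 64.7% of mitotic windows (25.2% of all windows) and CHR with CCAAT box in 58.8% (8.78% of all windows). E2F letters stood there in 33.3% of S phase windows (1.86% of all windows).

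Leaving out 1 array at a time gave class medians of -0.06 to 0.10 (mitotic), -0.0735 to 0.12 (S phase) and -0.06 to 0.34 (G1 cyclins), all 3 lowest without wildtype array 1 and highest without wildtype array 2. S phase minus mitotic ran from -0.02 to 0.03. With fewer arrays to overlap, 3 to 16 members were below (34.7% to 37.7% of all genes) and 6 to 23 above (29.2% to 31.4%), with 16 below without wildtype array 1 and 23 above without wildtype array 2. List medians ran from -0.0788 to 0.13 (further mitotic), -0.16 to 0.15 (further S phase), 0.0697 to 0.24 (genes that restrain the cycle), -0.23 to 0.17 (E2F factors) and -0.01 to 0.09 (anaphase-promoting list). Counts by pair need all 4 arrays. Cdk1 ran from -0.20 to 0.15 and Pcna from -0.22 to 0.18. The cause of these shifts was not tested.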

Other observations

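The direction between array numbers varied with the brightness of the cell cycle genes. Of 6 with a mean signal of 10000 or more (Ube2c, Mki67, Birc5, Pcna, Rrm2 and Mcm7), 4 were lower on the arrays numbered 2 in both genotypes and 0 higher, with medians of -0.18 in wildtype and -0.35 in heterozygous liver. Of 20 with a mean signal from 1000 to 5000, 14 were higher on the arrays numbered 2 in both genotypes and 1 lower, with medians of 0.27 and 0.16. Of all 3357 tested genes in that range, 1183 were higher in both genotypes and 1102 lower, with medians of -0.02 and 0.03. Of the 12 between 5000 and 10000, 5 were higher in both genotypes and 2 lower, with medians of 0.11 and 0.0026. Of all 549 tested genes in that range, 95 were higher in both genotypes and 292 lower, with medians of -0.11 and -0.13. Among all tested genes of 10000 or more, 293 of 347 were lower on the arrays numbered 2 in both genotypes, with medians of -0.29 and -0.36. The highest signals were 56988 and 56860 on the arrays numbered 1 against 34407 and 32468 on those numbered 2. The median genotype difference of the 6 brightest members was 0.02.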
